A study of Mus musculus with 5 samples.

Results

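The 8 genes of innate sensing described here were followed through mouse neutrophils and the myeloid cells sorted with them: Trem1, Trem3, Cd14, Tlr2, Tlr4, Myd88, Nlrp3 and Nlrp12. They are 8 of the 21995 genes counted, were chosen by name, and all passed the filter on low counts that left 11034 genes for testing. The mice were C57BL/6 in the steady state, kept specific-pathogen-free, either young (10 weeks by the sample labels, 8 weeks by the design text) or 20 months old. No transgene, deletion or treatment is named. Cells of 6 sources (blood, intestine, liver, lung, spleen and bone marrow) were sorted as living (DAPI-negative) CD11b+ Ly6G+ cells, multiplexed, and captured on 2 BD Rhapsody cartridges, here called pools YO1 and YO2. The cell barcodes carry the pool but neither the organ nor the age, so no comparison of organs or ages was made, and each pool mixes all of them.

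A barcode was kept as a cell with at least 200 unique molecular identifiers (UMIs, each a counted RNA molecule), at least 100 genes and under 20% mitochondrial UMIs. YO1 held 19505 such cells of 20352 barcodes with a median of 1231 UMIs, and YO2 held 17215 of 17720 with a median of 1454. The cells were placed in stages by marker UMIs. Cycling cells had at least 2 UMIs of Mki67 and Top2a together (675 in YO1, 72 in YO2), Ltf-high cells had at least 5 of the secondary granule gene Ltf (2180 and 445), and Ngp-high cells had at least 10 of the granule gene Ngp with fewer than 5 of Ltf (431 and 32). Mature cells had at least 2% of their UMIs from S100a8 and S100a9 with fewer than 3 of Ngp (9988 and 9779). Activated cells had at least 3 UMIs of Il1a, Icam1 and Nr4a3 together (10 and 134). They also had at least 1% of UMIs from S100a8 and S100a9, at least 1 of Csf3r, 0 of the monocyte gene Csf1r and fewer than 3 of Ngp. Without these further limits the activated gate held 56 and 701 cells. Cells with few S100a8 and S100a9 UMIs formed classical monocytes (751 and 528), nonclassical monocytes (484 and 457) and macrophages with at least 3 complement C1q UMIs (213 and 479). Lymphocytes, a reference group, had at least 3 UMIs of Cd79a, Ms4a1, Cd3d, Cd3e and Cd3g together (322 and 834). They also had under 2% of UMIs from S100a8 and S100a9 and fewer than 3 of C1q. These gates are rules on single genes, so the classes are marker ranges rather than clusters, and differences of gate genes are not results.

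Marker levels were checked against the class labels. Ly6g, which encodes part of the sorted epitope, stood at 1620 and 2072 CPM (a gene's UMIs per 1000000 UMIs of the class) in Ltf-high cells and at 143 and 94.6 CPM in mature cells of YO1 and YO2. It was between 7.18 and 17.1 CPM in monocytes and macrophages, although the whole suspension was sorted on Ly6G. All 7 listed neutrophil markers were found in every class: they summed to 88302 and 70016 CPM in mature cells, to between 4490 and 8019 CPM in the monocyte and macrophage classes, and to 4257 and 3041 CPM in lymphocytes. Cxcr2, a chemokine receptor of mature neutrophils, reached 198 and 633 CPM in cycling cells, 880 and 1153 CPM in Ltf-high cells and 3003 and 3811 CPM in mature cells. Cxcr2 was thus higher in the early stages of YO2 than in those of YO1, and neutrophil markers were counted in the monocyte and macrophage classes of both pools. Some results are given below also for cells without UMIs of Cxcr2 or Csf3r, a selection made after the data were seen.

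TREM-1 and TREM-3 are surface receptors of myeloid cells that signal through the adaptor DAP12, encoded by Tyrobp, and amplify inflammatory responses. CD14 binds bacterial lipopolysaccharide and hands it to TLR4 with MD-2, and it also assists TLR2, which recognises bacterial lipopeptides. Both Toll-like receptors recruit the adaptor MyD88, whose signal runs through IRAK kinases to NF-kB and induces, among others, Nlrp3 and Il1b. NLRP3 assembles the inflammasome that activates caspase-1 and releases interleukin-1 beta, and NLRP12 is a related NOD-like protein described as a restraint on NF-kB signalling and on neutrophil migration. All of them are known from neutrophils, monocytes or macrophages.

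To show the DNA just upstream of genes whose levels separated the stages, the 250 bases before the RefSeq start (build GRCm38) are printed 5′ to 3′ on the gene's strand for Trem1 (chr17:48232489-48232738, plus strand), Nlrp3 (chr11:59541319-59541568, plus strand) and Nlrp12 (chr7:3249741-3249990, minus strand). Capitals mark matches, on either strand, to the PU.1 core GAGGAA, the C/EBP motif TTGCNNAA, the NF-kB motif (GGGA and CC with 4 bases of any kind between them) or the AP-1 motif TGANTCA, where N is any base.
Trem1: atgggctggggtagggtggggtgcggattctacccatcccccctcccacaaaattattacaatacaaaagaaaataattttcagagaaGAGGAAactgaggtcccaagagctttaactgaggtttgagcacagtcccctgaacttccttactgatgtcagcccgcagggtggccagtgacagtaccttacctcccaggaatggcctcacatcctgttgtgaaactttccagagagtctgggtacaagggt
Nlrp3: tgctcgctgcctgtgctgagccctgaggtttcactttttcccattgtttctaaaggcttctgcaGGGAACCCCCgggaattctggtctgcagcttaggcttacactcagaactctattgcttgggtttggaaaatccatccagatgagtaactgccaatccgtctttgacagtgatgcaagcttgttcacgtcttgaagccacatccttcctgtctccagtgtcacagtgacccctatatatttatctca
Nlrp12: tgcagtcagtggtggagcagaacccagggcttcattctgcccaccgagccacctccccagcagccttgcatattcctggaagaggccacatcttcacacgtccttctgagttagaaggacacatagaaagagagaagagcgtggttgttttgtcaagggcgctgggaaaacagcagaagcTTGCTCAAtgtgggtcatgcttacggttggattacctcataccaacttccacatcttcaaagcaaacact

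The Trem1 window held 1 match to the PU.1 core and none to the other motifs, the printed Nlrp3 window 1 match to the NF-kB motif, and the Nlrp12 window 1 match to the C/EBP motif. Nlrp3 has another RefSeq start, whose window (chr11:59542436-59542685, not printed) held 3 matches to the PU.1 core and none to the NF-kB motif. Of 32841 RefSeq promoter windows of the same length, 23.3% held the PU.1 core, 9.57% the C/EBP motif, 17.6% the NF-kB motif and 6.75% the AP-1 motif. The matches describe letters only. Promoter windows were taken by gene name, with chromosome 18, where Cd14 lies, left out of the search. This gave windows for 5 of the 8 genes (Trem1, Tlr2, Myd88, Nlrp3 and Nlrp12).

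In the GENCODE annotation of the same build, Trem1 spans chr17:48232768-48246924 and Trem3 spans chr17:48247777-48258841, both on the plus strand, with 852 bases between them. Nlrp3 lies at chr11:59541568-59566956 on the plus strand and Nlrp12 at chr7:3218784-3249740 on the minus strand. Values are counts per protein-coding gene, and the part of each gene that the reads came from is not given in the sources used here. Trem1 overlaps a gene on the other strand, Myd88 (chr9:119335934-119341411, minus strand) overlaps Slc22a14 on its own strand and Acaa1a on the other, and Nlrp12 overlaps a cluster of miRNA genes. Whether counting used the strand is not given in the sources used here, so shares of reads from these neighbours are uncertain.

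Trem1 stood higher at each later stage of the neutrophils, and 2 of its 3 steps passed the test. Its level was 98.9 CPM in cycling cells of YO1 (95% Poisson interval 89.9 to 108) and 399.9 CPM in YO2 (344 to 462). It was 237 and 593 CPM in Ltf-high cells, 434 and 1337 CPM in Ngp-high cells, and 1483 CPM (1461 to 1506) and 1793 CPM (1772 to 1814) in mature cells. Each pool thus gave the same order of stages, and mature levels of both pools lay above every earlier stage, but YO2 stood higher than YO1 throughout. Mature cells held 15.003-fold the Trem1 level of cycling cells in YO1 and 4.48-fold in YO2.

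**Figure D1:**
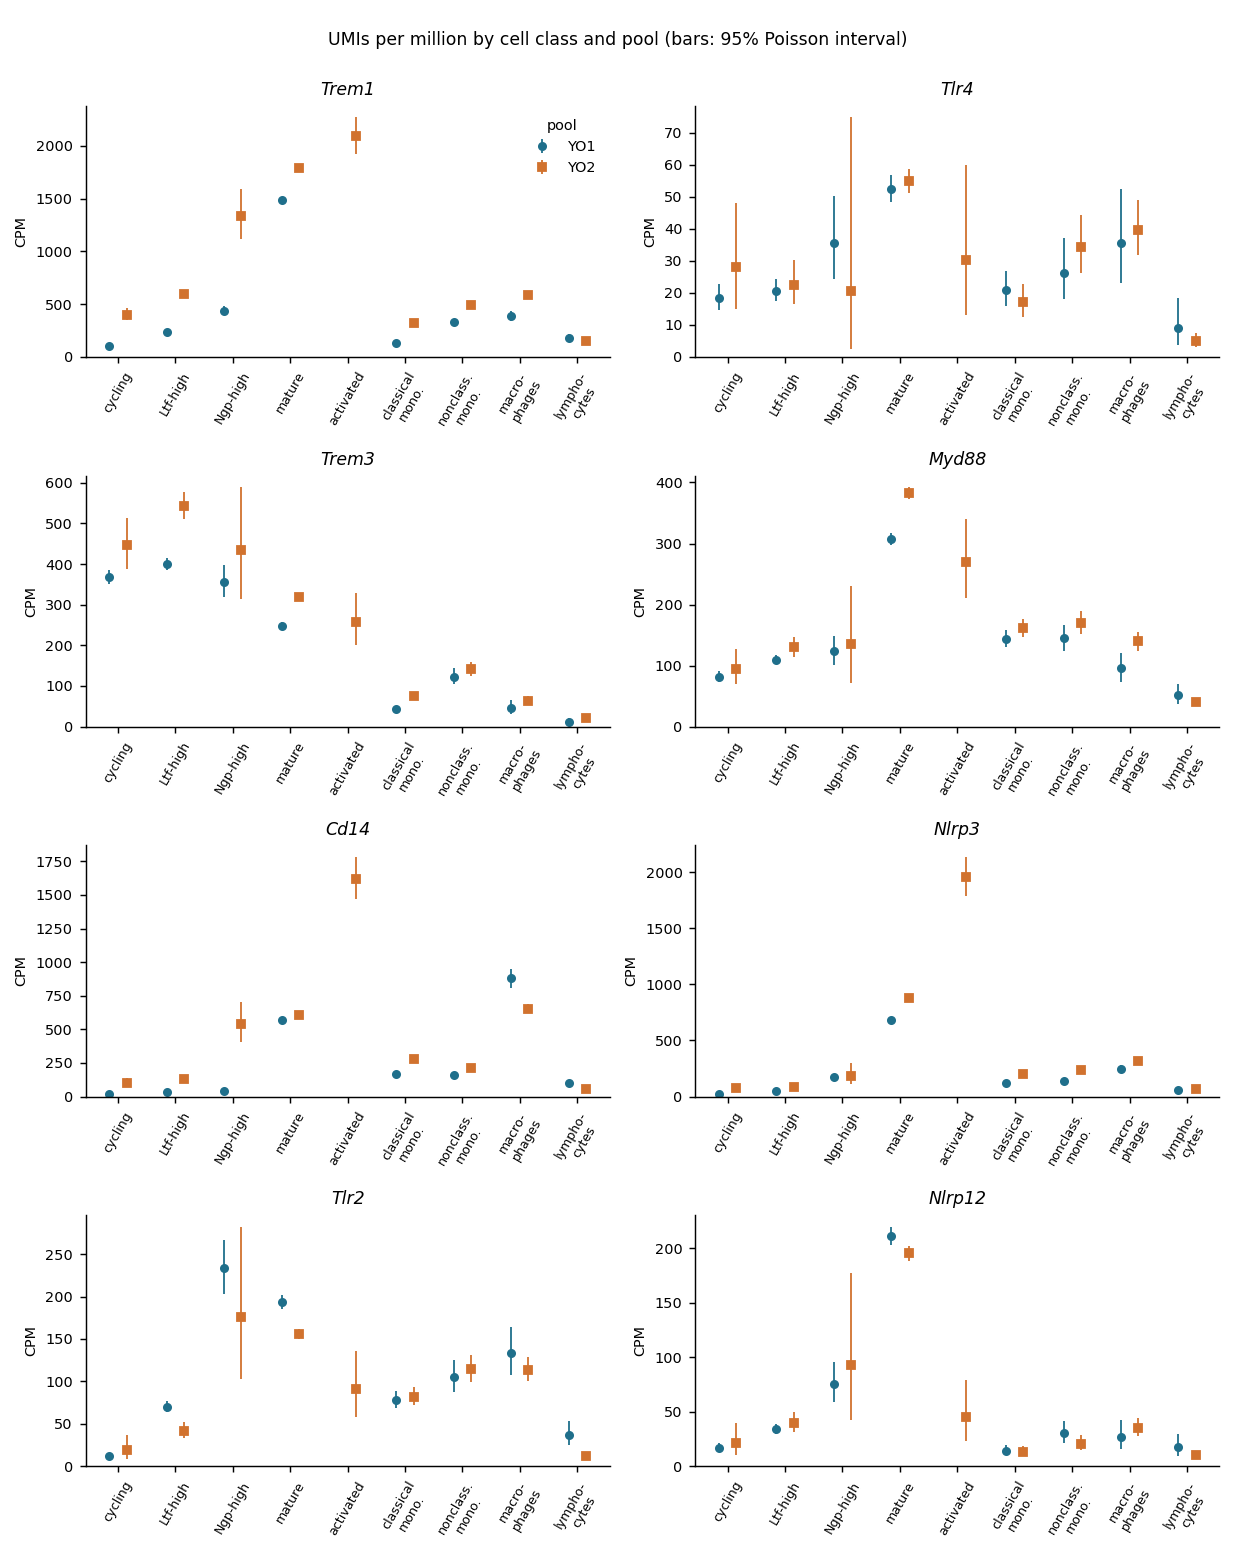
Level of each gene in CPM (vertical axis, linear and scaled per gene) in each stage or cell class (horizontal axis), one point per pool, with 95% Poisson intervals; sums of fewer than 30 cells are not drawn. Trem1, Cd14, Myd88, Nlrp3 and Nlrp12 are higher in mature neutrophils than in cycling cells of the same pool, whereas Trem3 is lower.

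Tests compared summed UMIs of 15 class-and-pool sums with edgeR's quasi-likelihood test, with pool as a block and Benjamini-Hochberg adjustment over 11034 genes; changes are log2 values ± standard error. With 1 library per pool, these p-values weigh class differences against the disagreement of 2 pools over all classes, not against the spread between mice, and Poisson or binomial intervals cover counting error only. Trem1 rose from cycling to Ltf-high cells (1.22 ± 0.32, adjusted p = 0.00425) and from Ngp-high to mature cells (1.44 ± 0.32, adjusted p = 0.00337 by edgeR). The step between them, 0.88 from Ltf-high to Ngp-high cells, did not pass (adjusted p = 0.108). The last step lost its call without the Ngp-high sum of YO1 (1.33, adjusted p = 0.12) or the mature sum of YO1 (0.93, adjusted p = 0.0902), and in DESeq2 (1.03, adjusted p = 0.0729). The first step lost its call without the cycling sum of YO1 (0.64, adjusted p = 0.208) or the Ltf-high sum of YO2 (1.02, adjusted p = 0.0501).

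Trem3, the neighbour of Trem1 on chromosome 17, ran the other way. It stood at 367 and 447 CPM in cycling cells of YO1 and YO2, 399.6 CPM and 543 CPM in Ltf-high cells, 356 and 435 CPM in Ngp-high cells, and 248 and 319.7 CPM in mature cells. Levels overlapped between the 3 early stages, and both mature levels lay below all early ones. Mature cells held 0.676 and 0.715 times the cycling level. In the fit Trem3 rose from cycling to Ltf-high cells (0.54 ± 0.19, adjusted p = 0.0249), a call lost with total UMIs as the library size (0.19, adjusted p = 0.326) and without the cycling sum of YO1 or either Ltf-high sum. Its change of −0.28 from Ngp-high to mature cells did not pass (adjusted p = 0.39 by edgeR), but did in DESeq2 (−0.66, adjusted p = 0.00222).

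Cd14, the lipopolysaccharide co-receptor (chr18:36725067-36726798, minus strand), was the member on which the pools disagreed most. In YO1 it was 17.7 CPM in cycling, 36.7 CPM in Ltf-high and 43.3 CPM in Ngp-high cells, then 568 CPM in mature cells. In YO2 it was 102 CPM, 127 CPM, 539 CPM and 609 CPM at the same stages. Lymphocytes held 97.0 CPM of Cd14 in YO1, above the cycling, Ltf-high and Ngp-high levels there, and 56.9 CPM in YO2. The mature levels were close, while the Ngp-high level of YO2, a sum of 32 cells, was near the mature one: the step from Ngp-high to mature was 13.1-fold in YO1 and 1.13-fold in YO2. The fitted step was 2.23 ± 0.60 (adjusted p = 0.0144 by edgeR), and it lost its call without the Ngp-high sum of YO1 (0.997, adjusted p = 0.549), without the mature sum of YO1 (1.62, adjusted p = 0.0999), and in DESeq2 (1.53, adjusted p = 0.332). Neither earlier step of Cd14 passed (1.16, adjusted p = 0.13, and 1.05, adjusted p = 0.385).

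Tlr2, the lipopeptide receptor, rose early and then stopped. Its levels were 12.2 and 19.5 CPM in cycling cells, 70.1 and 42.1 CPM in Ltf-high cells, 233 and 176 CPM in Ngp-high cells, and 194 and 156 CPM in mature cells of YO1 and YO2. Ngp-high and mature levels overlapped, and both lay above the earlier stages in both pools. Tlr2 rose by 2.56 ± 0.29 from cycling to Ltf-high cells (adjusted p = 1.27e-06) and by 1.87 ± 0.24 from Ltf-high to Ngp-high cells (adjusted p = 0.000126). The last step was −0.10 ± 0.23 (adjusted p = 0.804) and turned to 0.38 without the Ngp-high sum of YO1. The second rise was 1.38 without that same sum and did not pass (adjusted p = 0.284).

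Tlr4, the lipopolysaccharide receptor, was counted at 18.4 and 28.1 CPM in cycling, 20.6 and 22.6 CPM in Ltf-high, 35.5 and 20.7 CPM in Ngp-high, and 52.5 and 54.9 CPM in mature cells. Mature levels were above all others in both pools, and the earlier stages overlapped. Mature cells held 2.86-fold and 1.95-fold the cycling level. No single step passed: the fitted changes were 0.45, 0.70 and 0.78, and the last had an adjusted p of 0.0663 (0.0433 without the 5% of cells with the most UMIs).

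Myd88, the adaptor shared by both receptors, stood at 81.6 and 95.1 CPM in cycling cells, 109.96 CPM and 130.5 CPM in Ltf-high cells, 123 and 135 CPM in Ngp-high cells, and 308 and 383 CPM in mature cells. The pools were close at every stage, and mature cells held 3.77-fold and 4.03-fold the cycling level. Myd88 rose by 0.79 ± 0.18 at the first step (adjusted p = 0.00179) and by 1.56 ± 0.20 at the last (adjusted p = 2.76e-05). The middle step was 0.12 (adjusted p = 0.8). The last rise passed with each of the 4 sums left out (1.43 to 1.99), while the first did not without the cycling sum of YO1 (0.75, adjusted p = 0.0752).

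Nlrp3, the inflammasome sensor, rose at all 3 steps. It was 20.6 and 80.0 CPM (79.98) in cycling cells, 47.8 and 86.8 CPM in Ltf-high cells, 169.9 CPM and 187 CPM in Ngp-high cells, and 683 and 877 CPM in mature cells. No mature or Ngp-high level overlapped an earlier stage. The fitted steps were 1.16 ± 0.33 (adjusted p = 0.00921), 1.55 ± 0.32 (adjusted p = 0.00616) and 2.20 ± 0.31 (adjusted p = 5.66e-05 by edgeR). The last ran from 1.93 to 2.92 with each sum left out and passed each time, whereas the first was 0.23 (adjusted p = 0.754) without the cycling sum of YO1 and 1.02 (adjusted p = 0.0543) without the Ltf-high sum of YO2, and 0.83 in DESeq2 (adjusted p = 0.0666). The second was 0.84 (adjusted p = 0.652) without the Ngp-high sum of YO1 and 1.40 (adjusted p = 0.0916) without the Ltf-high sum of YO1.

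Nlrp12, the other NOD-like member, rose at the same steps. Its levels were 16.8 and 21.6 CPM in cycling, 33.8 and 40.1 CPM in Ltf-high, 75.5 and 93.3 CPM in Ngp-high, and 211 and 195 CPM in mature cells. The 4 stages did not overlap between pools. It rose by 1.41 ± 0.24 (adjusted p = 9.48e-05), 1.11 ± 0.25 (adjusted p = 0.00967) and 1.53 ± 0.22 (adjusted p = 8.15e-05). The last rise passed with each sum left out (1.42 to 1.62), and the first did not without the cycling sum of YO1 (1.01, adjusted p = 0.163). The second did not pass without the Ltf-high sum of YO1 (0.90, adjusted p = 0.151) or the Ngp-high sum of YO1 (1.03, adjusted p = 0.513).

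Read against all genes, 6 of the 8 members rose from cycling to Ltf-high cells and 0 fell, where 19.8% of genes tested rose and 23.2% fell. From Ltf-high to Ngp-high cells 3 rose and 0 fell, where 2.97% rose and 3.34% fell. From Ngp-high to mature cells 5 rose and 0 fell, where 12.4% rose and 4.48% fell. The median of all genes was −0.01, −0.21 and 0.49 at these steps, so the changes of Tlr4 at the last step (0.78) and Trem3 (−0.28) lie nearer to and below the general shift. The share of calls that were rises depended on the scaling: it was 46.0% at the first step (24.4% with total UMIs, 34.7% in DESeq2) and 73.4% at the last (60.6% and 40.0%). No direction of a member at these 3 steps flipped under either scaling.

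Some early-stage levels of YO1 lay below those of lymphocytes, used below as background. Lymphocytes of YO1 held 181 CPM of Trem1, 97.0 of Cd14, 37.0 of Tlr2 and 60.0 of Nlrp3. Each was above the cycling level of that pool, and for Cd14 and Nlrp3 also above the Ltf-high level. In YO2 they held 152 CPM of Trem1, 56.9 of Cd14 and 12.3 of Tlr2, below the cycling levels. Early-stage levels also differed in cells without a Cxcr2 UMI. Cxcr2 itself rose from stage to stage, and why these cells differed was not tested. Among cycling cells without a Cxcr2 UMI (387 in YO1, 18 in YO2), Trem1 was 52.3 and 200.3 CPM, Cd14 4.64 and 47.7 CPM, and Nlrp3 6.74 and 9.54 CPM, all below the values for all cycling cells. Trem3 was 360.4 CPM and 610.5 CPM in those cells, against 367 and 447 CPM in all cycling cells. In Ltf-high cells without a Cxcr2 UMI (528 and 68), Trem1 was 139.8 CPM and 359 CPM and Trem3 was 419.5 CPM and 652 CPM. The lower early values in these cells make the distance to mature cells wider for Trem1, Cd14 and Nlrp3. Fitted on these cells, with cycling cells of YO1 only, the step from cycling to Ltf-high cells was smaller for some members. It was 0.68 for Nlrp3 (1.16 in all cells), 0.63 for Nlrp12 (1.41) and 0.62 for Myd88 (0.79). Calls are not given for this fit, since its cycling cells are of YO1 only. Whether the rises of Nlrp3, Nlrp12 and Myd88 at this step hold in such cells is thus not settled. For Cd14 it was larger (2.45, against 1.16).

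**Figure D2:**
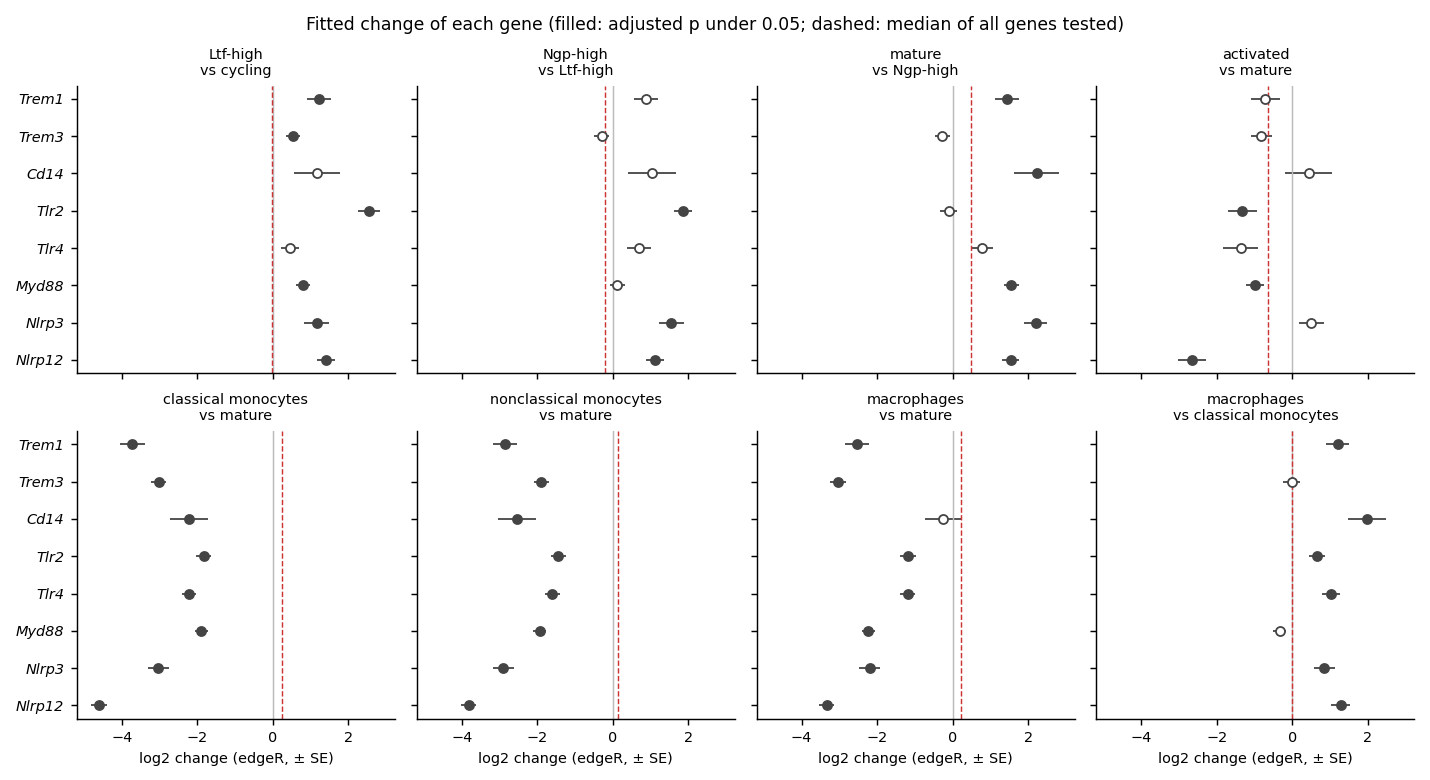
Fitted log2 change (horizontal axis, ± standard error) of the 8 genes in 8 comparisons of classes; filled points have an adjusted p under 0.05 and the dashed line is the median of all genes tested. Filled points lie right of 0 in the maturation steps and left of 0 in monocytes and macrophages against mature neutrophils.

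Shares of cells with at least 1 UMI were taken after thinning each cell to 800 UMIs, with shallower cells left out (in mature cells 1996 of YO1 and 253 of YO2). Trem1 was found in 53.8% of mature cells in YO1 (95% exact binomial interval 52.7 to 54.9) and 58.0% in YO2 (57.0 to 59.0). Lymphocytes, which should lack Trem1, gave 6.29% and 7.40%, taken as background; their median depths were 1374 and 3747 UMIs, against 1017 and 1343 in mature cells. Cycling cells of YO1 gave 5.87%, no more than lymphocytes, and those of YO2 21.1%. Ltf-high cells gave 16.3% and 33.4%, and Ngp-high cells 30.02% and 53.1%. The mature share thus exceeded the lymphocyte share in both pools, while the cycling share of YO1 could not be told from it.

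The other members were set beside lymphocytes in the same way. Nlrp3 was found in 37.7% and 44.4% of mature cells (lymphocytes 3.97% and 4.61%), Myd88 in 21.4% and 26.3% (4.30% and 3.88%) and Cd14 in 20.5% and 21.4% (3.31% and 3.40%). Trem3 was found in 17.6% and 22.7% (1.32% and 1.46%), Nlrp12 in 15.6% and 14.5% (1.66% and 0.728%), Tlr2 in 13.2% and 10.1% (1.66% and 0.971%), and Tlr4 in 3.804% and 4.14% (0.331% and 0.728%). All 8 shares in mature cells were above the lymphocyte share of the same pool, with intervals that did not overlap. The gates bear on this distance. Lymphocytes were limited to under 2% of UMIs from S100a8 and S100a9, mature cells had at least 2%, and the early stages had no such upper limit. Trem3 was the member found in more cycling cells of YO1 (25.2%) than mature cells (17.6%). At this depth 13.01% and 9.17% of mature cells showed none of the 8 genes, and 27.7% and 32.6% showed at least 3, against 63.6% and 42.3% with none among cycling cells and 84.1% and 83.7% among lymphocytes. Without thinning, the share of cycling cells of YO1 with Trem1 was 38.4%, since these cells held a median of 6113 UMIs.

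**Figure D3:**
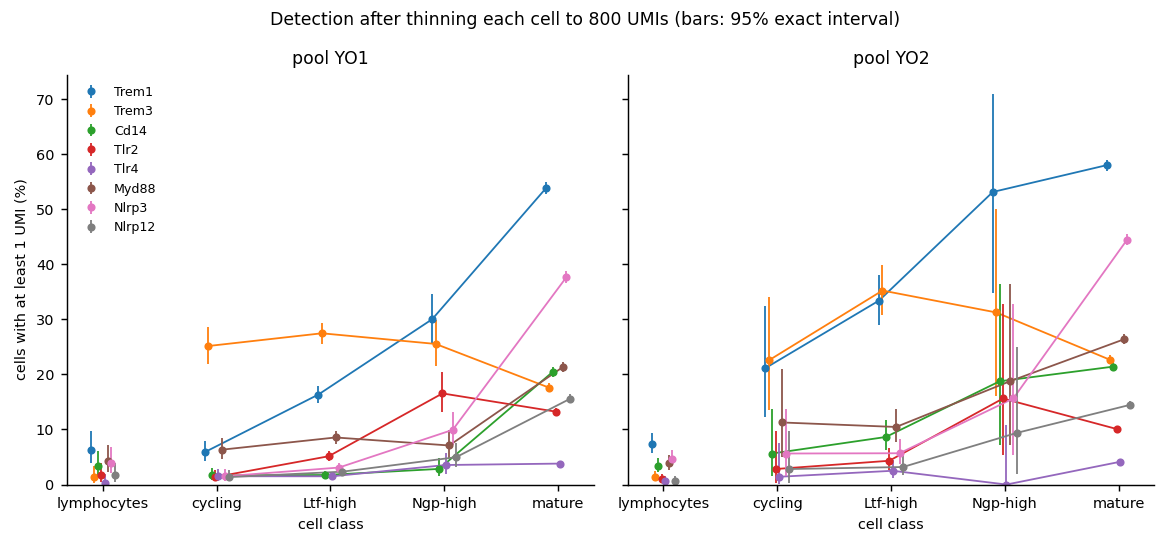
Share of cells with at least 1 UMI (vertical axis, percent, after thinning to 800 UMIs) by stage, 1 panel per pool, with lymphocytes at the left and 95% exact binomial intervals. The Trem1 share climbs from 5.87% in cycling to 53.8% in mature cells of YO1 and from 21.1% to 58.0% in YO2, whereas Trem3 shows no such climb.

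Within mature neutrophils, 5 pairs formed by Trem1, Cd14, Tlr2 and Nlrp3 were seen in the same cells more often than the product of their shares in both pools; the remaining pair of these genes, Tlr2 with Nlrp3, was at 0.992 times the product in YO1 and 1.17 in YO2. Trem1 and Cd14 were both found in 14.2% of cells in YO1 (13.4 to 14.9) where the product of their shares was 11.02%, and in 15.3% of cells in YO2 (14.6 to 16.01) against 12.4%. The ratio of observed share to product was 1.29 and 1.23 for this pair, 1.22 and 1.14 for Cd14 with Nlrp3, and 1.14 and 1.30 for Cd14 with Tlr2. It was 1.11 and 1.07 for Trem1 with Nlrp3 and 1.104 and 1.16 for Trem1 with Tlr2. These 5 of 28 pairs had a 95% exact interval above the product in both pools, and 0 pairs had one below it in both.

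Pairs with Tlr4 or Myd88 were not above the product in both pools. Tlr4 with Myd88 gave 1.20 and 0.983 times the product of their shares. Cd14 with Tlr4 gave 0.948 and 0.865 times the product, Cd14 with Myd88 0.939 and 0.915, and Tlr2 with Tlr4 0.995 and 1.06, and the neighbours Trem1 and Trem3 gave 1.04 and 0.996. The ratios describe cells of all organs and both ages pooled, so differences between those groups enter them and cannot be told apart from co-expression within a group. In lymphocytes, the Trem1 and Cd14 ratio was 6.36 and 6.75 on 4 and 14 cells that held both genes, although lymphocytes should lack them. The part of barcodes that hold more than 1 cell in the mature ratios was not tested.

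**Figure D4:**
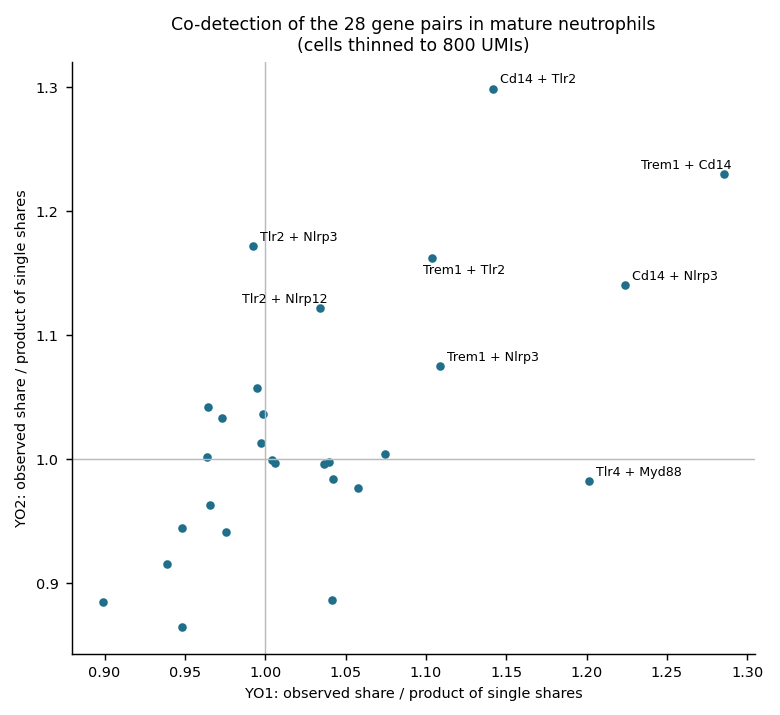
Observed share of mature neutrophils with both genes of a pair divided by the product of the 2 single shares, for the 28 pairs, with YO1 on the horizontal and YO2 on the vertical axis and grey lines where observed share and product are equal. The pair of Trem1 and Cd14 lies at 1.29 in YO1 and 1.23 in YO2, and the pair of Tlr4 and Myd88 at 1.20 in YO1 but 0.983 in YO2.

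Mature cells were then split by marker sets. Cells with at least 2 UMIs of the immediate early gene Egr1 (1144 cells in YO1 and 3421 in YO2) held 2918 CPM of Trem1 against 1244 CPM in the other mature cells of YO1, and 1964 against 1677 CPM in YO2. Cd14 was 1232 against 457 CPM in YO1 and 645 against 585 CPM in YO2. Both genes were thus higher in the Egr1 set of both pools, by log2 differences of 1.23 and 0.23 for Trem1 and 1.43 and 0.14 for Cd14, but the size differed widely between pools. Nlrp3 differed by 0.66 in YO1 and −0.01 in YO2, and Nlrp12 by −0.09 and −0.24.

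Sets of interferon-induced genes (732 and 1118 cells), Tnfsf14 (4299 and 6541) and Stfa2l1 (3593 and 3749) were also compared. In the interferon set, Trem1 differed by 0.25 in YO1 and 0.0016 in YO2, and Cd14 by 0.47 and −0.17. In the Tnfsf14 set, Cd14 differed by −0.33 and Tlr2 by −0.26 in YO2, more than any member did in the Egr1 set of that pool. No member differed by more than 0.5 on the log2 scale in these 3 sets in YO1 or YO2. With 1 library per pool no test between pools was possible.

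**Figure D5:**
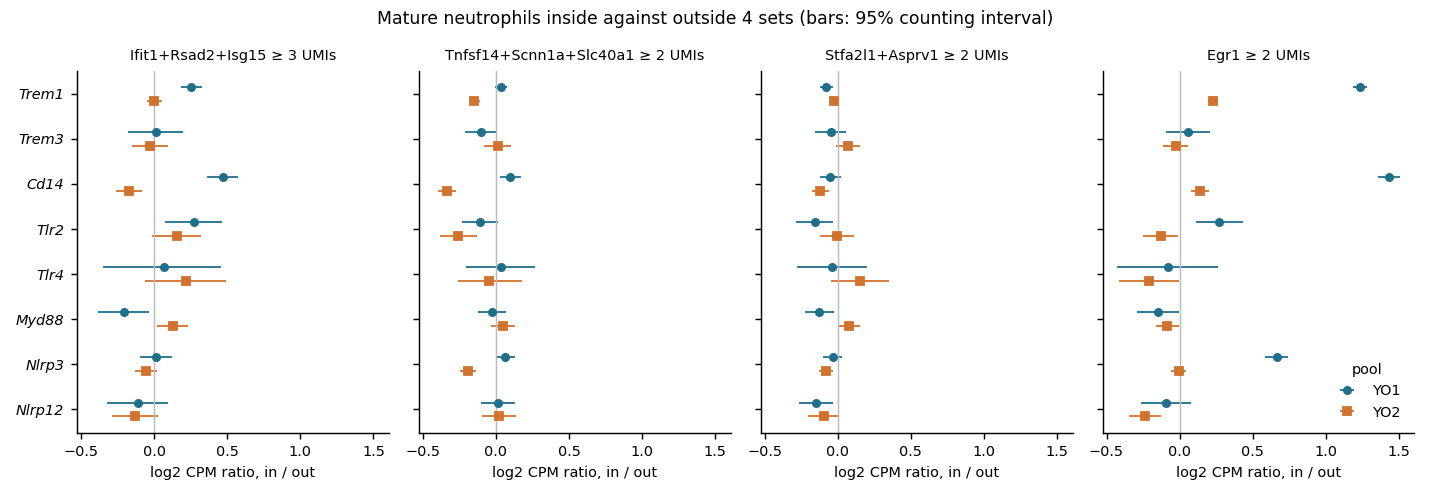
Log2 difference of the level in CPM (horizontal axis) between mature cells inside and outside each marker set, by gene and pool, with 95% counting intervals. Trem1 and Cd14 stand apart in the Egr1 set of YO1, at 1.23 and 1.43, and lie at 0.23 and 0.14 in YO2.

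Activated neutrophils gave a sum in YO2 only, where 134 cells passed, and the 10 cells of YO1 gave none. The fit set the activated sum of YO2 against the mature sums of both pools, with a pool term drawn from all classes. In YO2, Cd14 was 1619 CPM in activated and 609 CPM in mature cells, Nlrp3 1957 and 877 CPM, and Trem1 2089.7 CPM and 1793 CPM. Nlrp12 was 45.6 CPM against 195 CPM, Tlr2 91.2 against 156 CPM, Myd88 269.8 CPM against 383 CPM, Tlr4 30.4 against 54.9 CPM and Trem3 258 against 319.7 CPM. By CPM, 3 members were thus higher and 5 lower in activated cells of this pool. The 10 activated cells of YO1 lay the other way for the genes that fell in the fit: Nlrp12 was 465 against 211 CPM in mature cells, Tlr2 531 against 194 CPM and Myd88 465 against 308 CPM, with a log2 difference of 1.46 for Tlr2 (95% counting interval 0.24 to 2.44) and intervals that span 0 for Nlrp12 (−0.18 to 2.18) and Myd88 (−0.72 to 1.64). Activated cells with Nlrp3 at 800 UMIs made up 67.7%, with Trem1 69.2%, with Cd14 39.2% and with Nlrp12 3.85%.

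In the edgeR fit, Nlrp12 fell by 2.67 ± 0.36 (adjusted p = 0.000147), Tlr2 fell by 1.32 ± 0.38 (adjusted p = 0.0309) and Myd88 fell by 0.99 ± 0.25 (adjusted p = 0.0144). Thus 0 of 8 members rose and 3 fell, where 2.11% of genes rose and 6.95% fell, and the median of all genes was −0.66. With total UMIs the median was −0.16, and 64.1% of calls were rises in place of 23.3%; in DESeq2 the share was 75.4%. The call of Nlrp12 passed under all scalings. Those of Tlr2 and Myd88 were lost with total UMIs (−0.83 and −0.49), in DESeq2 (−0.83 and −0.48) and with no pool block (−1.44 and −0.86). With total UMIs Nlrp3 passed as higher (0.99, against 0.50 without a call in the main fit). The calls of Tlr2 and Myd88 were also lost without the mature sum of YO2 (adjusted p = 0.061 and 0.0865), that of Tlr2 also without the mature sum of YO1 (adjusted p = 0.0659). Cd14 had a change of 0.43 without a call, and its sign turned without the mature sum of YO2 (−0.15). It was 0.91 without the mature sum of YO1. Trem1 was −0.72 in the fit, also without a call, and −1.19 to −0.28 with either mature sum left out. Its CPM in YO2 went the other way, with 2089.7 CPM in activated and 1793 CPM in mature cells. A looser gate on Csf3r, chosen after the data were seen, added cells of YO1 and gave −0.36 for Cd14 and −0.39 for Nlrp3. With that gate edgeR called Trem1 (−1.63, adjusted p = 0.00107), Trem3 (−1.41, adjusted p = 0.000275) and Tlr4 (−1.38, adjusted p = 0.000491) lower, and Tlr2 did not pass (adjusted p = 0.0626). Under it the YO1 cells held 507 CPM of the monocyte gene Ccr2, and all 6 classical monocyte markers, summed to 1756 CPM against 619 CPM in mature cells; the part of such cells was not tested.

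Monocytes and macrophages carried less of most members than mature neutrophils. Trem1 was 136 and 323 CPM in classical monocytes, 330 and 488 CPM in nonclassical monocytes, and 383 and 584 CPM in macrophages. Nlrp12 was 14.1 and 13.4 CPM, 30.3 and 20.9 CPM, and 27.1 and 35.3 CPM in the same classes. Mature neutrophils thus held 10.9-fold and 5.55-fold the Trem1 level and 15.003-fold and 14.6-fold the Nlrp12 level of classical monocytes. Lymphocytes of YO1 held 181 CPM of Trem1 and 17.9 CPM of Nlrp12, so the classical monocytes of that pool were no higher than this background. In YO2 lymphocytes held 152 CPM of Trem1, below the classical monocytes. Nlrp3 was 124 and 198 CPM, 139.7 CPM and 234 CPM, and 245 and 313 CPM. Trem3 was 42.6 and 74.3 CPM, 123 and 142 CPM, and 47.0 and 64.1 CPM. For these 4 genes no level of the 3 classes overlapped a mature level.

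The edgeR fit called all 8 members lower in classical monocytes than in mature cells, where 39.8% of genes rose and 31.3% fell. The changes ran from −4.60 ± 0.20 for Nlrp12 (adjusted p = 2.7e-11) to −1.83 ± 0.20 for Tlr2, and Trem1 stood at −3.73 ± 0.33. All 8 were also called lower in nonclassical monocytes, from −3.82 for Nlrp12 to −1.44 for Tlr2 (34.9% of genes rose, 30.6% fell). In macrophages 7 fell and 0 rose (38.7% of genes rose, 30.4% fell), and Cd14 at −0.26 ± 0.48 did not pass (adjusted p = 0.641). The median of all genes was 0.23, 0.13 and 0.24 in the 3 comparisons, and 0.95, 0.92 and 0.93 with total UMIs. The share of calls that were rises moved from 56.0%, 53.3% and 56.0% to 76.9%, 78.8% and 76.0% with total UMIs and to 70.4%, 70.7% and 73.1% in DESeq2. The falls of the 8 members kept their calls under both scalings with 1 exception, Cd14 in classical monocytes in DESeq2 (−1.80, adjusted p = 0.0707).

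Cd14 was the member that macrophages shared with neutrophils. It was 879 and 652 CPM in macrophages, 568 and 609 CPM in mature cells, 166 and 281 CPM in classical and 160 and 209 CPM in nonclassical monocytes. Macrophages lay above mature cells by 1.55-fold and 1.07-fold in CPM, while the fitted change was −0.26 and turned to 0.43 with total UMIs and 0.37 in DESeq2, so no direction is given. At 800 UMIs Cd14 was found in 34.8% and 37.4% of macrophages, and in 20.5% and 21.4% of mature neutrophils. Tlr2 and Tlr4 also came nearer to the mature level in macrophages (134 and 114 CPM for Tlr2, 35.6 and 39.8 CPM for Tlr4), with fitted changes of −1.18 and −1.19.

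Between the 2 mononuclear classes, 6 of 8 members were called higher in macrophages than in classical monocytes and 0 lower, where 10.2% of genes rose and 7.26% fell. The changes were 1.96 ± 0.50 for Cd14 (adjusted p = 0.0093), 1.20 ± 0.31 for Trem1 (adjusted p = 0.0103), 1.28 ± 0.26 for Nlrp12 (adjusted p = 0.00137) and 1.03 ± 0.24 for Tlr4 (adjusted p = 0.00526). They were 0.84 ± 0.28 for Nlrp3 (adjusted p = 0.0405) and 0.65 ± 0.22 for Tlr2 (adjusted p = 0.0458), and Trem3 was −0.02 and Myd88 −0.34 without a call. Cd14 lost its call without the macrophages of YO1 (0.996, adjusted p = 0.278) and Nlrp12 without those of YO2 (1.0005, adjusted p = 0.169). Trem1 lost its call without the YO1 sum of either class (adjusted p = 0.125 and 0.0998), and Tlr4 without the YO2 sum of either class (adjusted p = 0.14 and 0.0959). Tlr2 lost its call without 3 of the 4 sums, classical monocytes of YO2 excepted, and Nlrp3 without any 1 of the 4 (adjusted p from 0.0928 to 0.26 by edgeR). In DESeq2, Cd14 (2.17, adjusted p = 0.101) and Tlr2 (0.76, adjusted p = 0.0541) did not pass. With no pool block, Trem1, Cd14, Tlr2 and Nlrp3 did not (adjusted p = 0.28, 0.147, 0.142 and 0.286 by edgeR).

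Several of these values differed in sorted mononuclear cells without a Cxcr2 or Csf3r UMI, and why was not tested. In macrophages without a Cxcr2 or Csf3r UMI (110 in YO1, 167 in YO2) Trem1 was 15.96 and 18.3 CPM, where all macrophages held 383 and 584 CPM. Nlrp12 was at 0 UMIs in both pools, where the exact Poisson interval reaches 11.8 and 5.61 CPM and 3 counts would make 9.57 and 4.56 CPM. Cd14 was 616 and 509.6 CPM in those macrophages, and Tlr4 31.9 and 39.6 CPM. Their summed neutrophil markers were 1385 and 819.96 CPM, with Cxcr2 and Csf3r at 0 by selection. Among classical monocytes without these UMIs (408 and 216), Trem1 was 20.6 and 35.9 CPM and Cd14 109 and 217 CPM.

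Fitted on these cells, macrophages and classical monocytes differed otherwise. Trem1 turned to −0.73 (adjusted p = 0.281), Nlrp3 to −0.25 (adjusted p = 0.497) and Nlrp12 to −2.84 on almost no counts (adjusted p = 0.645). Trem3 (−2.23, adjusted p = 0.000438) and Myd88 (−1.101, adjusted p = 0.00121) were called lower in macrophages by edgeR, and Cd14 and Tlr4 were still called higher. Against mature neutrophils, Cd14 of these macrophages had a fitted change of −0.94 (adjusted p = 0.00162), while their CPM was above the mature level in YO1 (616 against 568) and below it in YO2 (509.6 against 609), so no direction is given. Nonclassical monocytes without these UMIs (288 and 203) held 113 and 119.9 CPM of Trem1 and 104 and 129 CPM of Trem3, above the classical ones in both pools.

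Other genes of the same pathways were counted from 6 lists chosen by name, with the number called higher and lower at the step from Ngp-high to mature cells. Of 10 other Toll-like receptors 1 rose and 0 fell, of 7 co-receptors and chaperones 3 rose and 1 fell, and of 17 adaptors and kinases 4 rose and 0 fell. Of 10 tested genes of other TREM receptors and TREM signalling, among them kinases and adaptors, 2 rose and 0 fell. Of 21 inflammasome and other NOD-like genes 6 rose and 2 fell, and of 11 brakes of Toll-like signalling 6 rose and 0 fell. The medians of the lists were 1.90, 1.24, 0.52, 0.36, 0.66 and 1.25, beside 0.49 over all genes, of which 12.4% rose and 4.48% fell. That of the other Toll-like receptors swung between steps. It was 2.26 from cycling to Ltf-high cells and −1.79 from Ltf-high to Ngp-high cells. Tyrobp, the adaptor of TREM-1, named here after its values were seen, rose by 0.92 ± 0.24 (adjusted p = 0.0105), from 3049 and 4104 CPM to 5074 and 6067 CPM. Il1b, the cytokine matured by the inflammasome, rose by 3.34 ± 0.42 (adjusted p = 2.35e-05), from 724 and 2466 CPM to 10132 and 10830 CPM. The feedback inhibitor Socs3 rose by 3.10 ± 0.39 (adjusted p = 2.05e-05 by edgeR), while Pycard, which encodes the inflammasome adaptor ASC, fell by 1.55 ± 0.36 (adjusted p = 0.00557).

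From cycling to Ltf-high cells 5 of the 10 other Toll-like receptors rose and 0 fell, where 19.8% of all genes rose and 23.2% fell. Tlr13, a sensor of bacterial ribosomal RNA, rose by 2.70 ± 0.25 (adjusted p = 9.94e-08). Ly96, which encodes the MD-2 partner of TLR4, rose by 3.09 ± 0.43 at that step (adjusted p = 1.35e-05). Tlr6, which pairs with TLR2, rose from Ngp-high to mature cells by 1.95 ± 0.34 (adjusted p = 0.000456), from 17.8 and 41.5 CPM to 72.2 and 99.2 CPM.

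In activated cells of YO2, Tnfaip3, a brake on NF-kB signalling, rose by 2.60 ± 0.32 (adjusted p = 3.54e-05), from 163 CPM to 1467 CPM. Irak2 rose by 1.64 ± 0.30 (adjusted p = 0.00222) and Tirap, which bridges TLR4 and TLR2 to MyD88, fell by 1.68 ± 0.35 (adjusted p = 0.00462). Tyrobp fell by 1.04 ± 0.31. The median of all genes was −0.66 in this fit, −0.16 with total UMIs and 0.14 in DESeq2. Changes of Tnfaip3, Irak2, Tirap and Tyrobp under the other scalings were not examined. Of the 11 brakes 2 rose and 0 fell, and of the 17 adaptors and kinases 1 rose and 2 fell, where 2.11% of all genes rose and 6.95% fell.

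Monocytes and macrophages differed from mature cells also in other genes of these families. Of the 11 brakes, 1 rose and 10 fell in classical monocytes and 0 rose and 10 fell in macrophages, against mature cells. Of all genes, 39.8% rose and 31.3% fell in the former and 38.7% rose and 30.4% fell in the latter. Tlr7, a sensor of single-stranded RNA, was 68.3 and 87.3 CPM in classical monocytes and 7.35 and 10.3 CPM in mature cells (2.41 ± 0.21, adjusted p = 8.31e-09). Trem2 was 221 and 151 CPM in macrophages and 2.94 and 1.90 CPM in mature cells (5.59 ± 0.23, adjusted p = 8.33e-13), the reverse of Trem1. Pycard was 178 and 119 CPM in classical monocytes and 12.5 and 6.87 CPM in mature cells (3.23 ± 0.21, adjusted p = 1.83e-10 by edgeR), and Tyrobp was lower there (−1.86 ± 0.24).

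Over the 15 sums, genes of most similar pattern were taken as those with the highest Pearson correlation of log2(CPM + 1) among 5262 genes with sufficient counts; the sums share libraries and depth, and no test was made. Trem1 was closest to Resf1 (0.967), Pnrc1 (0.956) and Ddit3 (0.955), and Trem3 to Pglyrp1 (0.962), Pfn1 (0.958) and Mapk13 (0.950). Cd14 was closest to the immediate early and NF-kB genes Egr1 (0.957), Nfkbiz (0.947) and Fos (0.945). Tlr2 was closest to Arap1 (0.947), Tlr4 to P2ry13 (0.864), Myd88 to Relt (0.978), Nlrp3 to Junb (0.980) and Nlrp12 to Grina (0.951). Among the members, Cd14 and Nlrp3 had 0.868, Myd88 and Nlrp3 0.843, Trem1 and Nlrp3 0.839, and Trem3 and Cd14 −0.370.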

How the data were processed

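Gene counts of single cells from 2 multiplexed pools (YO1 and YO2, 1 BD Rhapsody cartridge each, reads of 60 and 42 bases on a NextSeq 2000, per the labels' protocols) were used as the authors deposited them: unnormalised UMI counts per gene and barcode, 39713846 in YO1 and 41839786 in YO2. Genome build mm10 is named in the submitters' processing notes. Aligner and counting rule: not given in the sources used here. Sample tags were not analysed here: barcodes of the count table carry only the pool, and 374 barcode numbers occur in both pools.

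Cells passed 200 UMIs, 100 genes and under 20% mitochondrial UMIs. Cells with at least 3 UMIs of other-lineage genes were removed (1512 and 1097), gates left 3261 and 4192 unclassified, and 14732 and 11926 were placed in 8 classes. No doublet caller was run; an alternative dropped the 5% of cells with the most UMIs. CPM is the summed count of a gene in a class and pool over the summed UMIs, with an exact Poisson interval. Sums of at least 30 cells, 15 in all, were tested with edgeR 4.0.16 in R 4.3.3 (filterByExpr, TMM factors, quasi-likelihood test with pool as a block, Benjamini-Hochberg threshold 0.05). The pool block is the pairing, since each pool was prepared together on 1 cartridge per the labels. DESeq2 1.42.0 was an alternative. Shares were taken after thinning cells to 800 UMIs. Python 3.11.15 with scipy 1.17.1 was used for the rest. The test was checked on simulated data. Other alternatives were total UMIs, no filter, no block, a 500 UMI minimum, no removal of other lineages, wider gates, and each sum left out; 2 were added after the data were seen (the Csf3r gate and the cells without Cxcr2 or Csf3r UMIs).

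Named genes were the 8 members, the 3 genes of most similar pattern to each among those averaging at least 20 CPM, and the gene with the largest called change per pathway list, comparison and direction; Tyrobp and some further list genes were named after their values were seen. The members, lists and gates were chosen with earlier results of these data known.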

Additional observations from a re-analysis of the deposited data

Results flagged for a closer look

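All 8 members were compared in the interferon, Tnfsf14, Stfa2l1 and Egr1 sets of mature neutrophils. Of these differences between cells inside and outside a set, 6 went opposite ways in the 2 pools. Each had a 95% counting interval clear of 0, which covers counting error only, and some bounds lay next to 0. With 1 library per pool, none of these differences between pools was tested. The values are log2 differences of CPM, inside minus outside.

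In cells with interferon-induced genes, Cd14 differed by 0.47 in YO1 (0.36 to 0.58) and by −0.17 in YO2, and Myd88 by −0.21 in YO1 and 0.13 in YO2. In the Tnfsf14 set, Cd14 differed by 0.0995 in YO1 and −0.33 in YO2, and Nlrp3 by 0.0640 in YO1 (2.83e-05 to 0.128) and −0.19 in YO2. In the Stfa2l1 set, Myd88 differed by −0.13 in YO1 and 0.0768 in YO2 (0.00182 to 0.152). In cells with Egr1, Tlr2 differed by 0.27 in YO1 (0.11 to 0.43) and −0.13 in YO2.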

How the results depend on the processing

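Of 864 recalculated changes of members, 740 kept direction and side of the threshold, 80 lost their call, 21 gained one and 23 changed sign. Falls in monocytes against mature cells kept direction in every run, and a 500 UMI minimum changed no call of 64. Cd14 in macrophages against mature cells (−0.26) was 0.37 in DESeq2, 0.43 with total UMIs and −1.27 to 0.41 with 1 sum left out. In activated against mature cells, wider gates gave −0.91 for Cd14 and −0.90 for Nlrp3, and the Csf3r gate −0.36 and −0.39; Cd14 ran from −0.15 to 0.91 with 1 sum left out. In macrophages against classical monocytes, Trem3 (−0.02) was 0.0785 in DESeq2, 0.0224 without removal of other lineages, 0.53 with wider gates and −0.24 to 0.27 with 1 sum left out. Without Cxcr2 or Csf3r UMIs, Trem1 was −0.73, Nlrp3 −0.25 and Nlrp12 −2.84 there; Ngp-high comparisons could not be run on such cells. With 1 sum left out, Tlr4 from cycling to Ltf-high cells ran from −0.0876 to 0.60; from Ltf-high to Ngp-high cells Tlr4 ran from −0.44 to 0.85, Myd88 from −0.31 to 0.26 and Cd14 from −0.31 to 2.23; from Ngp-high to mature cells Trem3 ran from −0.46 to 0.0832 and Tlr2 from −0.24 to 0.38.

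Counts of genes called, with 1 sum left out: 4750 (1230 to 5169; 2870 without Cxcr2 UMIs) from cycling to Ltf-high, 696 (43 to 614) from Ltf-high to Ngp-high, 1860 (532 to 1484) from Ngp-high to mature, 1000 (638 to 723) in activated cells, and 1922 (854 to 1255) between macrophages and classical monocytes. Wider gates gave 393 from Ltf-high to Ngp-high and 6288 in activated cells, the Csf3r gate 4639 and total UMIs 637 in activated cells. With no replicate block the counts were 293 from Ltf-high to Ngp-high and 647 in activated cells, and 12 of 46 member calls were lost, among them Trem1 at the first (1.11) and last (1.31) steps and Cd14 at the last (1.84). Why runs differ was not tested. The Ngp-high sum of YO2 held 32 cells and the activated sum 134.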
